A study of Sus scrofa with 12 samples.

Results

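The 10 genes described here encode proteins with which the porcine uterus and conceptus adhere to each other: 2 secreted ligands, osteopontin (SPP1) and fibronectin (FN1), and 8 integrin subunits (ITGAV, ITGA4, ITGA5, ITGB1, ITGB3, ITGB5, ITGB6 and ITGB8). They were taken by name and not by a rule on measured values, although earlier results of these data were known. All 10 were found among the 19550 protein-coding genes on the chromosomes of Sscrofa11.1. Binding of C/EBP-β, a basic leucine zipper transcription factor, was mapped by chromatin immunoprecipitation and sequencing (ChIP) in endometrial tissue, the lining of the uterus, of pigs on days 12 and 15 of pregnancy. Each day had 3 ChIP libraries made with the same C/EBP-β antibody, and the 6 inputs are outside the present analysis. No non-pregnant group was analysed, so both groups share the pregnant state. The tissue was not separated into epithelium, stroma, vessels and immune cells, and expression was not measured, so a summit cannot be assigned to a cell type.

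Integrins are cell surface receptors built from an alpha and a beta subunit, and the pair decides which matrix proteins they hold. The ITGAV subunit pairs with the products of ITGB1, ITGB3, ITGB5, ITGB6 and ITGB8, and many of these pairs recognise the Arg-Gly-Asp motif of osteopontin and fibronectin. ITGA5 and ITGA4 pair with ITGB1 to form fibronectin receptors. In the pig the conceptus does not invade: its trophectoderm attaches to the luminal epithelium, and osteopontin bridging integrins on both surfaces is a known part of that attachment.

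The lists hold peak summits, the single base at which the peak caller placed the highest signal, with a score but no read counts. Depth per sample is therefore unknown, and a gene without a summit may have binding that was not detectable in that library. The lists ran from 6557 summits in day 12 replicate 1 to 70152 in day 15 replicate 1. By the form of their peak names the libraries fall into 2 processing sets. In set A the names contain a folder path: it consists of day 12 replicate 1 with day 15 replicates 2 and 3. Set B consists of the other 3 libraries, namely day 12 replicates 2 and 3 together with day 15 replicate 1. The 3 longest lists are those of set B. In day 12 replicate 1 and day 15 replicate 3 the protein is missing from the sample part of these names, and 1 sample code is used for both replicate 2 and replicate 3 of day 15. The labels do not say whether replicates came from separate animals, so p-values here reflect the spread between libraries alone, and that spread may be technical.

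A summit within 5 kb of either end of the gene was found for 9 of the 10 genes in at least 1 library. The exception was ITGA4, and 29.5% of all genes likewise had none. Per library, 1, 3 and 7 of the 10 genes had such a summit in day 12 replicates 1, 2 and 3, against 17.2%, 38.4% and 54.1% of all protein-coding genes. In day 15 replicates 1, 2 and 3 it was 8, 7 and 5 of the 10 genes, against 64.8%, 44.6% and 37.6%. The share among the 10 was thus below that of all genes in day 12 replicates 1 and 2 and above it in the other 4 libraries. A gene was counted as bound on a day when at least 2 of its 3 libraries had a summit within 5 kb. This rule gave 4 bound genes of the 10 for day 12 (SPP1, FN1, ITGB3 and ITGB8), where 38.1% of all genes were. On day 15, 7 were bound (SPP1, ITGAV, ITGA5, ITGB1, ITGB3, ITGB5 and ITGB8), where 46.3% of all genes were. SPP1, ITGB3 and ITGB8 were bound on both days, as were 30.5% of all genes. None of the 10 had a summit within 5 kb in all 6 libraries, which 13.1% of all genes had. Leaving out day 12 replicate 2 left 1 gene (SPP1) bound on day 12, and leaving out replicate 3 left 0, since both remaining libraries then needed a summit. The number for all genes fell as well, to 16.6% and 15.0%. When each list was reduced to its 6557 highest-scoring summits, only ITGB3 was bound on either day, where the background was 9.68% of all genes for day 12 and 20.3% for day 15.

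**Figure D1:**
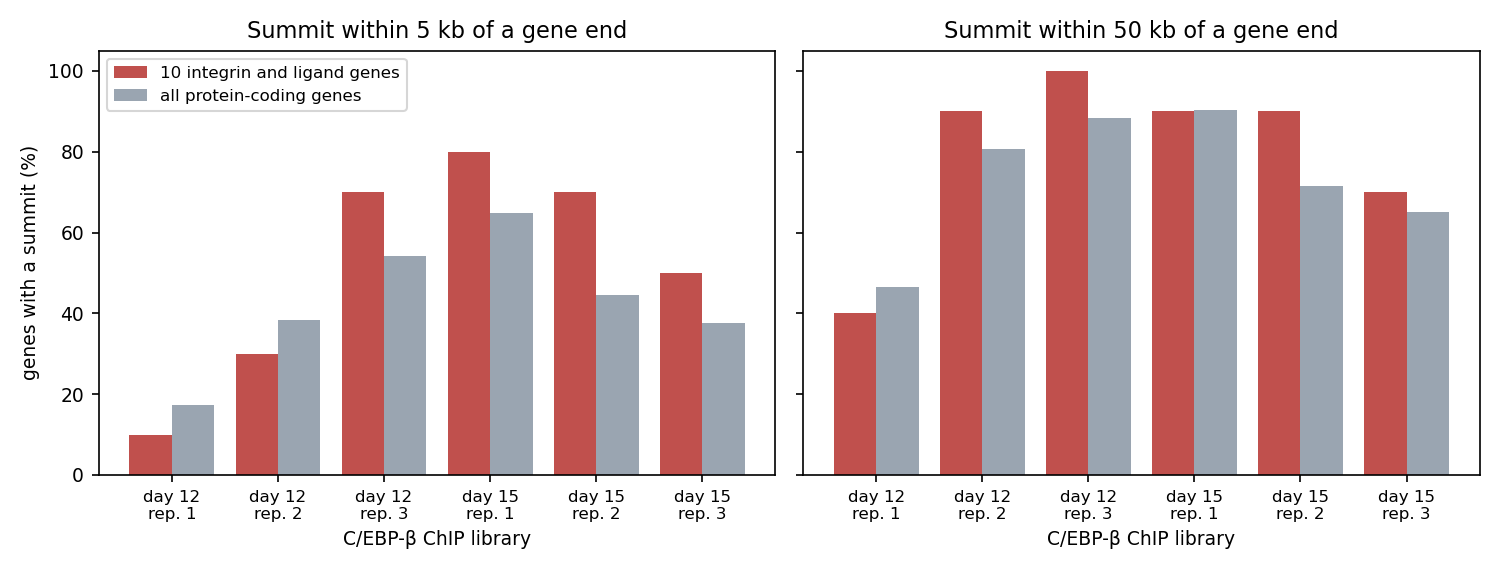
Share of genes (%) with a summit within 5 kb (left) or 50 kb (right) of a gene end in each library, for the 10 integrin and ligand genes (red bars) and for all 19550 protein-coding genes (grey bars). Both shares are lowest in day 12 replicate 1, and within 5 kb both are highest in day 15 replicate 1.

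Within 50 kb of a gene end, 9 of the 10 were bound on day 12 and also 9 on day 15, where 80.0% and 74.2% of all genes were, and again ITGA4 was the exception. The same 9 were bound on both days, as were 69.0% of all genes, and 4 of the 10 had a summit in every library, against 40.5%. None separated the days completely in this window, which 0.517% of all genes did towards day 15 and 0.0205% towards day 12, and none lacked a summit in every library (6.76% of all genes). Per library, 4, 9 and 10 of the 10 had a summit in day 12 replicates 1 to 3, against 46.6%, 80.7% and 88.4% of all genes. For day 15 replicates 1 to 3 it was 9, 9 and 7, against 90.4%, 71.6% and 65.1%. A window of this size often reaches other genes: each of the 10 had between 1 and 4 other protein-coding genes within 50 kb. The wide window was used to count summits. The numbers for the 10 genes together were 6, 32 and 57 summits in day 12 replicates 1 to 3 and 75, 21 and 14 in day 15 replicates 1 to 3. The day 15 mean was the higher one for 6 genes and the lower one for 4, as for 52.4% and 31.4% of all genes, and the median difference was 0.67 summits, beside 0.33 over all genes. Differences were tested gene by gene over all 19550 genes with a two-sided exact permutation test, whose smallest possible p with 3 libraries a day is 0.1. No gene could therefore pass, and the smallest Benjamini-Hochberg adjusted p was 1 (0 genes at an unadjusted p under 0.05). Only ITGB1 had non-overlapping numbers on the 2 days.

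**Figure D2:**
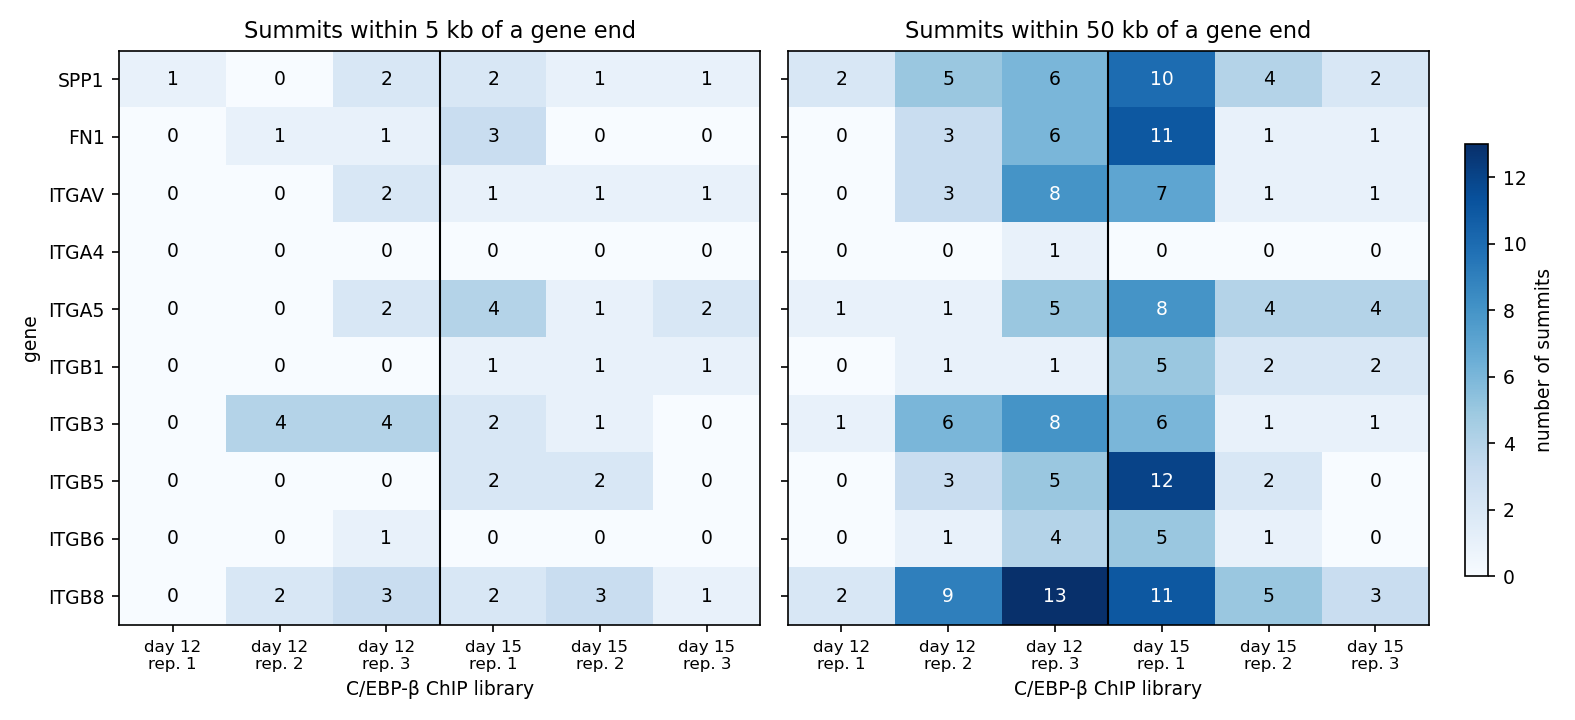
Number of summits within 5 kb (left) and 50 kb (right) of either gene end for each gene (rows) and library (columns), with the number written in each cell and a line between days 12 and 15. ITGB1 has 0 summits within 5 kb in the day 12 libraries and 1 in each day 15 library, and ITGA4 has 1 summit in all, in day 12 replicate 3 within 50 kb.

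SPP1, the gene of osteopontin, lies on chromosome 8 from 131077786 to 131085334. Its 7.5 kb held no summit in any library, and its near-end summits lay beyond its upper-coordinate end. The annotation used gives no strand, so gene ends are named by coordinate. Within 5 kb of its ends SPP1 had 1, 0 and 2 summits in day 12 replicates 1 to 3 and 2, 1 and 1 in day 15 replicates 1 to 3. In 5 libraries one of these lay between 131087684 and 131087829, 2.4 kb beyond the end. Summits are ranked here by the percentile of their score within their own list, which is not comparable between lists of different lengths. This region stood at percentile 3.8 and 42.8 in day 12 replicates 1 and 3, and at 93.7, 60.1 and 42.4 in day 15 replicates 1 to 3. Day 12 replicate 2 was the only library without it. The day 12 presence of SPP1 thus rests in part on a summit near the bottom of the shortest list. A further site, 60 to 95 bp beyond the same end, appeared in day 12 replicate 3 and day 15 replicate 1, the 2 longest lists.

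The most constant site of the SPP1 neighbourhood lay farther away. A region at 131031582 to 131031607, only 26 bp wide, had a summit in all 6 libraries, 46.2 kb from the lower end of SPP1. It lies inside PKD2, the polycystin 2 gene, 27.3 kb from the nearest end of that gene, so by distance it belongs to PKD2 rather than SPP1. Its percentile was 99.5, 99.9 and 99.9 in day 12 replicates 1 to 3 and 99.9, 99.6 and 97.8 in day 15 replicates 1 to 3. By mean percentile it took place 44 among the 2701 regions of the genome with a summit in all 6 libraries, within the top 1.63%. Its rank was 24 of 33294 summits in day 12 replicate 2 and 266 of 11960 in day 15 replicate 3. Of the other regions more than 5 kb from SPP1, one lay 24.4 kb from the lower end, also inside PKD2, in 4 libraries, and one 15.2 kb beyond the upper end in the 3 set B libraries. Within 50 kb SPP1 had 2, 5 and 6 summits on day 12 and 10, 4 and 2 on day 15. The mean was 4.33 ± 2.08 on day 12 and 5.33 ± 4.16 on day 15 (SD, n = 3 each, exact permutation p = 0.9), so the days overlapped. Within sets, day 15 was higher by 1 in set A and by 4.5 in set B (exact permutation keeping the sets, p = 0.222, smallest possible 0.111). Without day 15 replicate 1 the pooled difference was -1.33, and without day 12 replicate 1 it was -0.167.

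FN1, on chromosome 15 from 117658158 to 117737145, encodes fibronectin, a matrix glycoprotein bound by many integrins. Within 5 kb it had 0, 1 and 1 summits on day 12 and 3, 0 and 0 on day 15. All of these were in set B libraries, in which the near-end summits clustered around the lower end. Day 12 replicate 2 and day 15 replicate 1 had a summit 872 and 880 bp outside that end, at percentiles 68.8 and 92.7, and day 12 replicate 3 one 938 bp inside it, at percentile 19. FN1 was thus bound on day 12 and not on day 15, but its 2 day 12 summits lay at different positions. The only summits of the 2 set A libraries of day 15 lay inside the gene, 5858 bp (replicate 3) and 5159 bp (replicate 2) from the upper end, in regions shared with 3 and 2 set B libraries. Both were at low percentiles, 6.6 in replicate 3 and 5.4 in replicate 2. Day 12 replicate 1 had no summit in the gene or within 50 kb. Within 50 kb FN1 had 0, 3 and 6 summits on day 12 and 11, 1 and 1 on day 15. The means were 3 ± 3 and 4.33 ± 5.77 (SD, n = 3 each, exact permutation p = 0.8), and the difference turned to -2 when day 15 replicate 1 was left out and to -0.167 when day 12 replicate 1 was. It was 1 in set A and 6.5 in set B (exact permutation keeping the sets, p = 0.111).

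**Figure D3:**
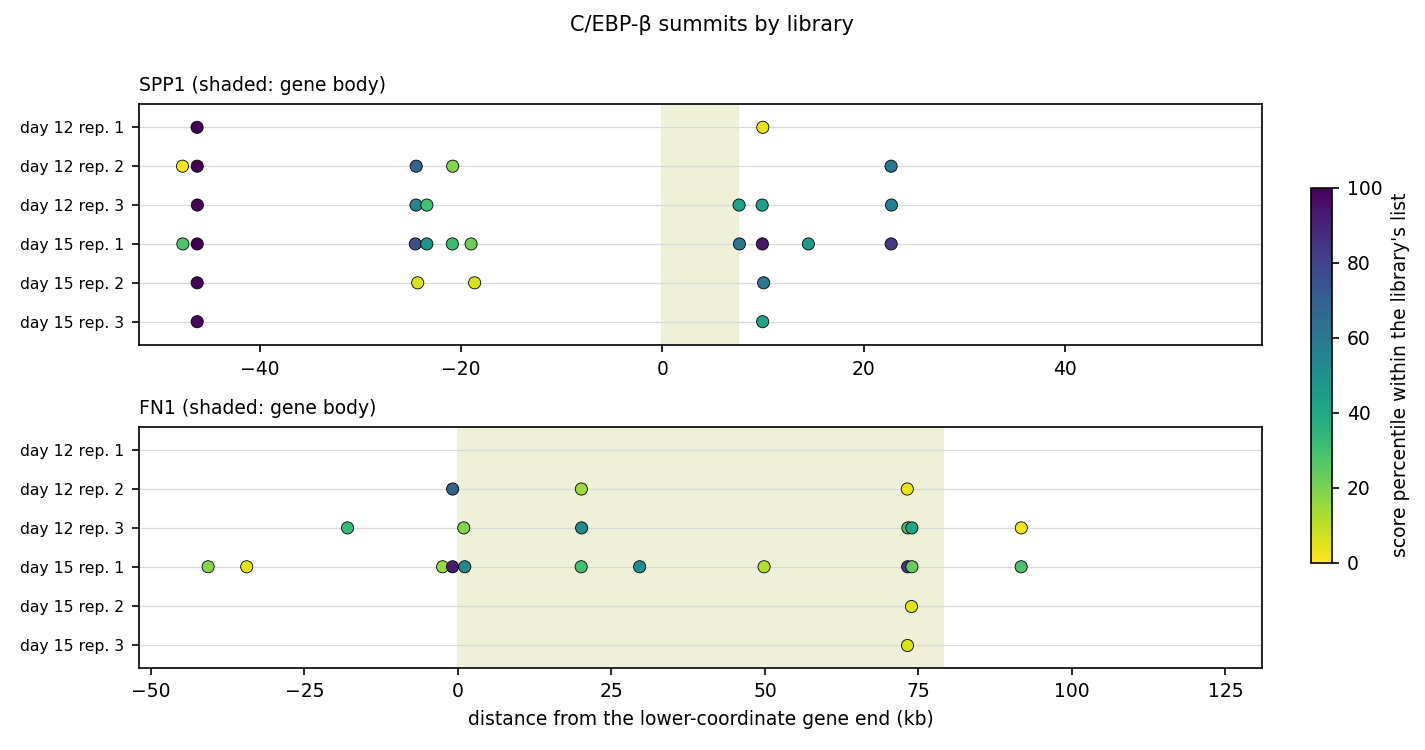
Summits of each library (rows) along SPP1 and FN1 and 50 kb either side, as distance in kb from the lower-coordinate end of the gene, with the gene body shaded and the colour giving the score percentile within the list. The column of dark points 46.2 kb below SPP1 is the region found in all 6 libraries, and FN1 has 11 of its 22 summits in day 15 replicate 1.

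Among the alpha subunits, ITGAV (chromosome 15, 91604666 to 91711843) encodes the partner of 5 beta subunits in this group. Its near-end summits were all at the lower end. There were 0, 0 and 2 within 5 kb on day 12 and 1 in each day 15 library. Those of day 15 lay 184 bp outside and 22 and 96 bp inside the end in replicates 1 to 3, at percentiles 18.6, 57.3 and 5.7. Those of day 12 replicate 3 lay 359 and 1127 bp inside, at percentiles 0.4 and 12.8. ITGAV was thus present in 1 library of day 12 and in all 3 of day 15, all within 1127 bp of one end and most at low percentiles. The highest-ranking summits around ITGAV lay in set B. They were in a group of regions 22.8 to 35.0 kb outside the lower end, up to percentile 82.0 in day 12 replicate 3 and 86.7 in day 15 replicate 1, and no library of set A had one there. Within 50 kb the numbers were 0, 3 and 8 on day 12 and 7, 1 and 1 on day 15 (3.67 ± 4.04 and 3 ± 3.46, SD, n = 3 each, exact permutation p = 0.9). The difference of -0.67 became 1.5 without day 12 replicate 3 and 0.333 without either day 15 replicate 2 or 3. Within both sets it was above 0, at 1 and 1.5 (exact permutation keeping the sets, p = 0.778).

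ITGA5 (chromosome 5, 19587361 to 19610580), the alpha subunit of the classical fibronectin receptor, had the same library pattern as ITGAV. Within 5 kb it had 0, 0 and 2 summits on day 12 and 4, 1 and 2 on day 15, all at its upper end. A region that straddles that end (19610481 to 19610625) had a summit in day 12 replicate 3 and in the 3 day 15 libraries, between 14 and 99 bp from the end. Its percentile was 56.1 in day 12 replicate 3 and 81.4, 17.9 and 49.7 in day 15 replicates 1 to 3. Without day 12 replicate 3, ITGA5 and ITGAV were present in 3 of 3 libraries on day 15 but 0 of 2 on day 12, as 8.04% of all genes did. A region in all 6 libraries (19568448 to 19568497) lay 18.9 kb from the lower end, inside the neighbouring ZNF385A and 8.2 kb from an end of it. It ranked between percentile 70.7 in day 12 replicate 1 and 97.4 in day 15 replicate 1, place 897 of the 2701 such regions. Within 50 kb ITGA5 had 1, 1 and 5 summits on day 12 and 8, 4 and 4 on day 15. The means were 2.33 ± 2.31 and 5.33 ± 2.31 (SD, n = 3 each, exact permutation p = 0.3). The days overlapped only through the 5 summits of day 12 replicate 3, and the difference of 3 was the largest of the 10 genes. Day 15 was higher by 3 in set A and by 5 in set B (exact permutation keeping the sets, p = 0.111, the smallest possible).

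ITGA4 (chromosome 15, 86942054 to 87028428), which pairs with ITGB1 to bind fibronectin and the vascular adhesion molecule VCAM1, stood at the other extreme. Its 86.4 kb held no summit in any library. The only summit within 50 kb of an end came from day 12 replicate 3, at percentile 0.7. The nearest end of CERKL lies 0.8 kb away, inside the same near-end window. At most 1 summit within 50 kb over the 6 libraries was found for 9.69% of all genes, and at most 1 with the gene body included for 9.26%.

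ITGB1 (chromosome 10, 56078393 to 56130608) encodes the beta subunit shared by the most integrins. It was the only one of the 10 genes with a summit within 5 kb in 3 of 3 libraries on one day but absent from the other day, in the direction of day 15. This pattern was found for 2.83% of all genes, and the reverse pattern, seen for none of the 10, for 0.0307%. The 3 summits did not coincide. They lay 982 bp outside, 268 bp inside and 212 bp outside the upper end in day 15 replicates 1 to 3, and none were within 200 bp of each other. Their percentiles were 55.0, 36.7 and 12.6. The pattern was also present within 1 kb of a gene end, where 3.9% of all genes had it. It was lost with a score of at least 5, because the summit of day 15 replicate 3 has a score of 3.07, and with lists of equal length, in which no library had a summit within 50 kb of ITGB1. None of the 10 separated the days with equal lists, which 0.292% of all genes did towards day 15 and 0.292% towards day 12. It was also lost when the whole gene body was counted, since day 12 replicate 2 had a summit 6.3 kb inside the same end, in a region shared with day 15 replicate 1.

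Within 50 kb ITGB1 had 0, 1 and 1 summits on day 12 and 5, 2 and 2 on day 15. Every day 15 library was above every day 12 library, which held for 2.84% of all genes. The means were 0.67 ± 0.58 and 3 ± 1.73 (SD, n = 3 each), and the difference of 2.33 had the smallest p that the design allows (exact permutation p = 0.1, adjusted 1). It was 2 in set A and 4 in set B (exact permutation keeping the sets, p = 0.111). Within 100 kb the days overlapped, and so they did within 50 kb with a score of at least 5 (difference 1.67, exact permutation p = 0.4), where ITGA5 was instead the gene with non-overlapping numbers (2.67, p = 0.1). Replicates 2 and 3 of day 15, the libraries with 1 sample code between them, each had a second summit there. These, 42.4 and 42.2 kb beyond the upper end, lay 212 bp apart and were found in no other library.

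ITGB3 (chromosome 12, 16694466 to 16752228), the beta subunit of the classical vitronectin receptor and of the platelet integrin, had its largest near-end numbers in day 12 replicates 2 and 3. There were 0, 4 and 4 within 5 kb on day 12 and 2, 1 and 0 on day 15, and all lay at the lower end. The main region there (16693482 to 16693539, 956 bp outside the gene) had a summit in 4 libraries, at percentiles 87.6 and 93.5 in day 12 replicates 2 and 3 and 94.9 and 61.7 in day 15 replicates 1 and 2. A second, 2.8 kb outside, was found in the 3 set B libraries. ITGB3 was the one gene of the 10 with a summit within 5 kb in 2 of 3 libraries of each day among the 6557 highest-scoring summits.

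The ITGB3 region that ranked highest in each day 12 library lay inside the gene, 19.7 kb from the lower end (16714183 to 16714243). All 3 day 12 libraries had a summit there, at percentiles 87.0, 99.4 and 98.7. On day 15 only replicate 1 had one, at percentile 88.9, and replicates 2 and 3 had none within 200 bp. Among the 106 regions found in the 10 genes and 50 kb around them, 5 had a summit in all 3 libraries of day 12, and the other 4 of these were in all 6 libraries. The share of all regions of the genome with a summit in all 3 libraries of day 12 is not given here. This number therefore has no background and cannot be read as particular to ITGB3. Within 50 kb of the ends the numbers were 1, 6 and 8 on day 12 and 6, 1 and 1 on day 15. The means were 5 ± 3.61 and 2.67 ± 2.89 (SD, n = 3 each, exact permutation p = 0.7), a difference of -2.33 between overlapping groups. It was 0 in set A and -1 in set B (exact permutation keeping the sets, p = 1). Per 10000 summits of the library the days did not overlap, with day 12 higher (difference -0.806, exact permutation p = 0.1, the smallest possible). The share of all genes that separate the days on this scale is not given here. With a score of at least 10 the unscaled difference was 0.

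ITGB5 (chromosome 13, 135468111 to 135587483) encodes another partner of ITGAV that binds vitronectin. Within 5 kb it had 0, 0 and 0 summits on day 12 and 2, 2 and 0 on day 15. Both day 15 libraries had 1 summit outside and 1 inside the lower end, at 698 and 535 bp in replicate 1 and at 502 and 274 bp in replicate 2. Their percentiles were between 7.2 and 36.8. Without day 15 replicate 3, ITGB5 joined ITGB1 among genes that separated the days, and 4.66% of all genes then did. The highest-ranking ITGB5 region lay deep inside the gene, 26.5 kb from the upper end (135560924 to 135560950). It had percentiles of 93.8 and 95.6 in day 12 replicates 2 and 3 and 97.6 in day 15 replicate 1, and none of the set A libraries had it. Within 50 kb there were 0, 3 and 5 summits on day 12 and 12, 2 and 0 on day 15. The means were 2.67 ± 2.52 and 4.67 ± 6.43 (SD, n = 3 each, exact permutation p = 0.9), and the difference turned to -1.67 without day 15 replicate 1. It was 1 in set A and 8 in set B (exact permutation keeping the sets, p = 0.222).

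ITGB6 (chromosome 15, 67041516 to 67175409) encodes an epithelial subunit whose pair with ITGAV binds osteopontin, fibronectin and latent TGF-β. It had 1 summit within 5 kb in all, from day 12 replicate 3, 600 bp inside the lower end at percentile 27.3. Its 133.9 kb is the longest gene body of the 10, and most of its summits lay within it: 7 of its 9 regions were inside the gene. Of these, 3 were found in exactly the 3 set B libraries, the highest at 67116318 to 67116333, with percentiles 89.3, 84.4 and 87.4. Another region, 8.9 kb inside the upper end, reached percentile 92 in day 12 replicate 3 and 84.9 in day 15 replicate 1, and was present at percentile 11.8 in day 15 replicate 2. Within 50 kb ITGB6 had 0, 1 and 4 summits on day 12 and 5, 1 and 0 on day 15 (1.67 ± 2.08 and 2 ± 2.65, SD, n = 3 each, exact permutation p = 1). Without day 15 replicate 1 the difference was -1.17, and without day 12 replicate 1 it was -0.5. Within sets it was 0.5 and 2.5 (exact permutation keeping the sets, p = 0.556). Counts within 50 kb of the ends leave out the middle of this gene, where its region at 67116318 lies. With the whole gene body included, ITGB6 had 0, 3 and 6 summits on day 12 and 8, 1 and 0 on day 15, a difference of 0.

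ITGB8 (chromosome 9, 89342245 to 89450701), whose pair with ITGAV binds latent TGF-β, had the most regions of the 10 genes, 17, and the most recurrent ones. Its lower end lies 64 bp from an end of MACC1, so their near-end windows coincide on that side and the summits there belong to both. Within 5 kb ITGB8 had 0, 2 and 3 summits on day 12 and 2, 3 and 1 on day 15. In 5 libraries, all but day 12 replicate 1, one of these lay in a region about 1.2 kb outside the end (89340962 to 89341110), at percentiles from 6.4 to 40.4. No near-end summit of ITGB8 was among the 6557 highest-scoring of any library.

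By contrast, 2 other regions had a summit in all 6 libraries. One lay inside ITGB8, 6.6 kb from its upper end (89444040 to 89444067, 28 bp wide). Its percentile was 94.9, 99.0 and 99.3 in day 12 replicates 1 to 3 and 99.5, 96.9 and 96.7 in day 15 replicates 1 to 3, and it took place 163 of 2701. It was the only region of the 10 genes that lay inside the named gene and was found in every library. A second region, 1 kb away from it (89443005 to 89443062), was found in the 3 set B libraries, at percentiles 82.3, 95.3 and 91.0. The other constant region lay 23.5 kb outside the lower end, inside MACC1 (89318677 to 89318787), at percentiles between 82.6 in day 15 replicate 3 and 98.6 in day 15 replicate 1. Having 2 or more such regions in the gene body or within 50 kb was found for 6.6% of all genes, and having at least 1 for 27.1%. This window grows with gene length, and ITGB8 (108.5 kb) is longer than the median protein-coding gene (20.6 kb). Within 50 kb ITGB8 had 2, 9 and 13 summits on day 12 and 11, 5 and 3 on day 15 (8 ± 5.57 and 6.33 ± 4.16, SD, n = 3 each, exact permutation p = 0.8). The difference of -1.67 was 0.833 without day 12 replicate 3, and it was 2 in set A and 0 in set B (exact permutation keeping the sets, p = 0.667).

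**Figure D4:**
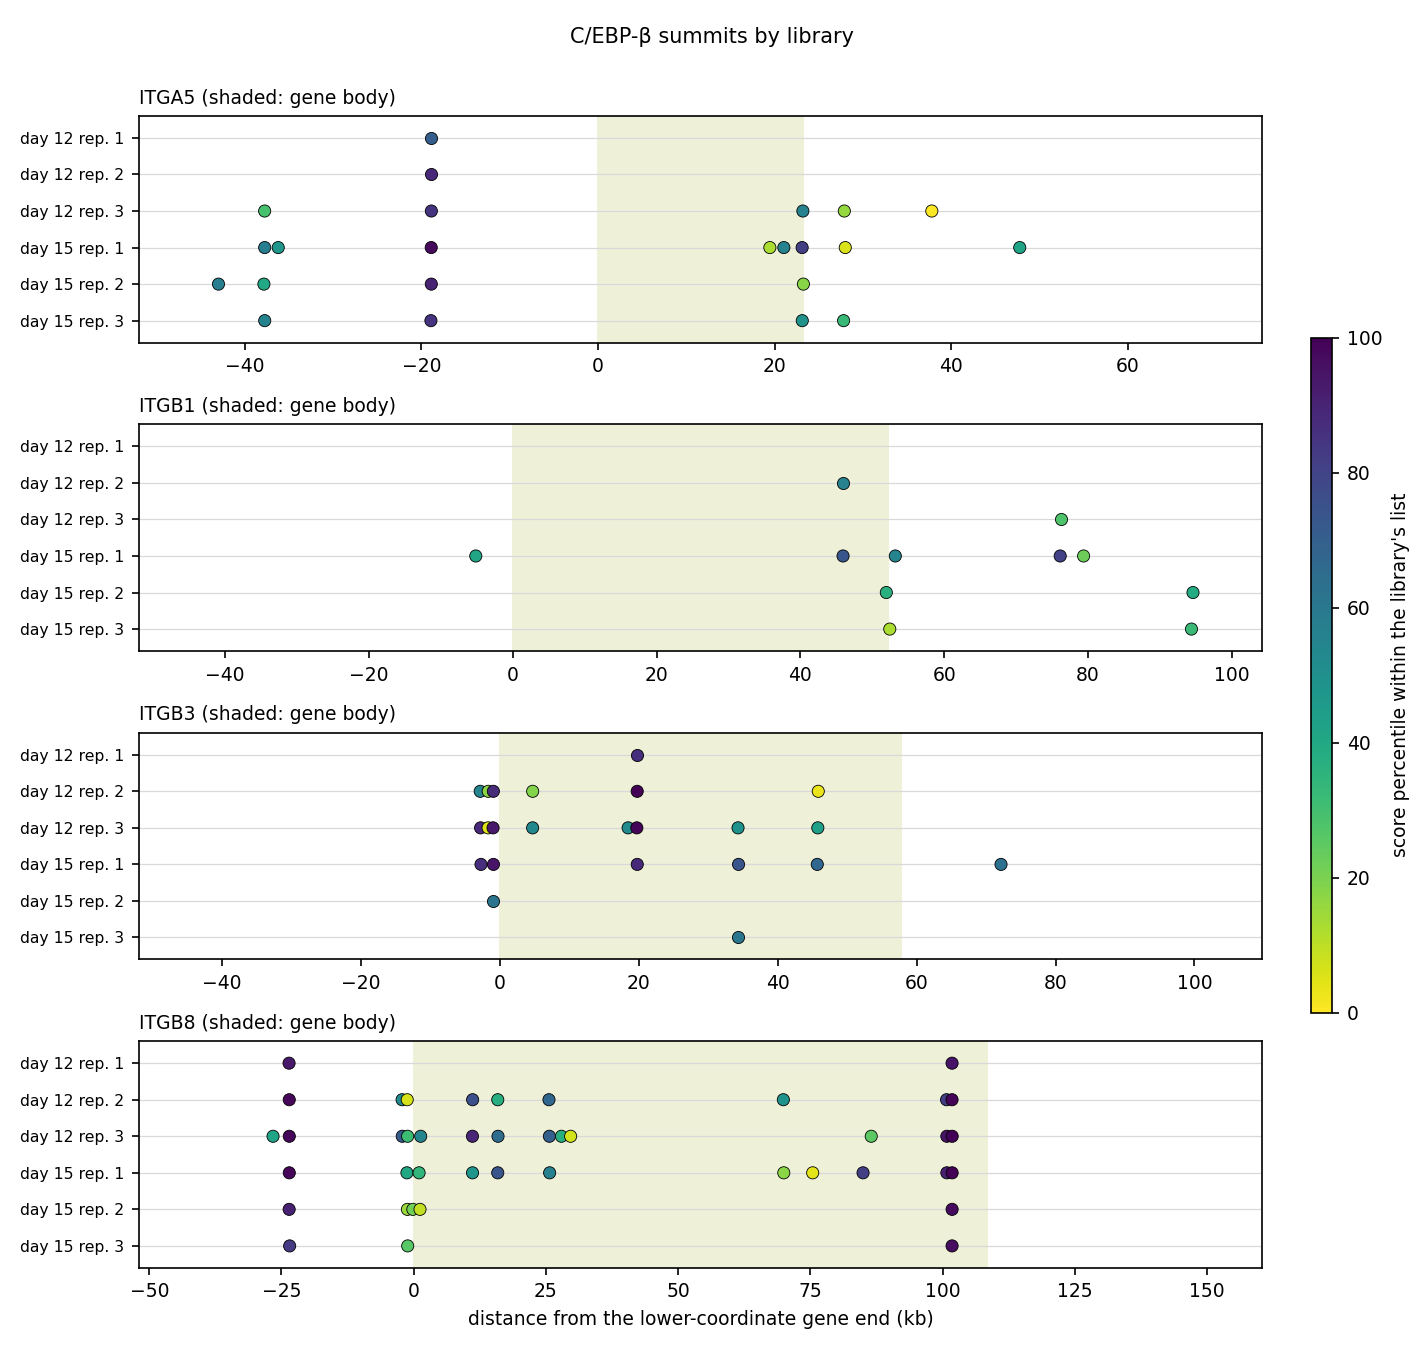
Summits of each library (rows) along ITGA5, ITGB1, ITGB3 and ITGB8 and 50 kb either side, as distance in kb from the lower-coordinate gene end, with the gene body shaded and the colour giving the score percentile within the list. Vertical columns of points are recurrent regions: all 6 libraries share 1 region outside ITGA5 and 2 regions at ITGB8, 4 share the region 19.7 kb into ITGB3, and the points of ITGB1 do not form a column of more than 2 libraries.

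Over the 10 genes together, summits within 200 bp formed 106 regions in the gene bodies and 50 kb either side, 54 inside the genes and 52 outside. Of these, 53 came from 1 library and 4 (3.77%) from all 6, beside 50.5% and 2.73% of the 99058 regions of the genome. A further 15 (14.2%) were found in exactly the 3 libraries of set B, as were 12.8% of all regions. The degree of sharing around these genes was thus near that of the genome as a whole. The 4 constant regions belong to the surroundings of 3 genes, SPP1, ITGA5 and ITGB8, and 3 of the 4 lie inside a neighbouring gene. With lists of equal length SPP1, ITGB3 and ITGB8 had a summit within 50 kb in all 6 libraries, as did 17.0% of all genes.

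**Figure D5:**
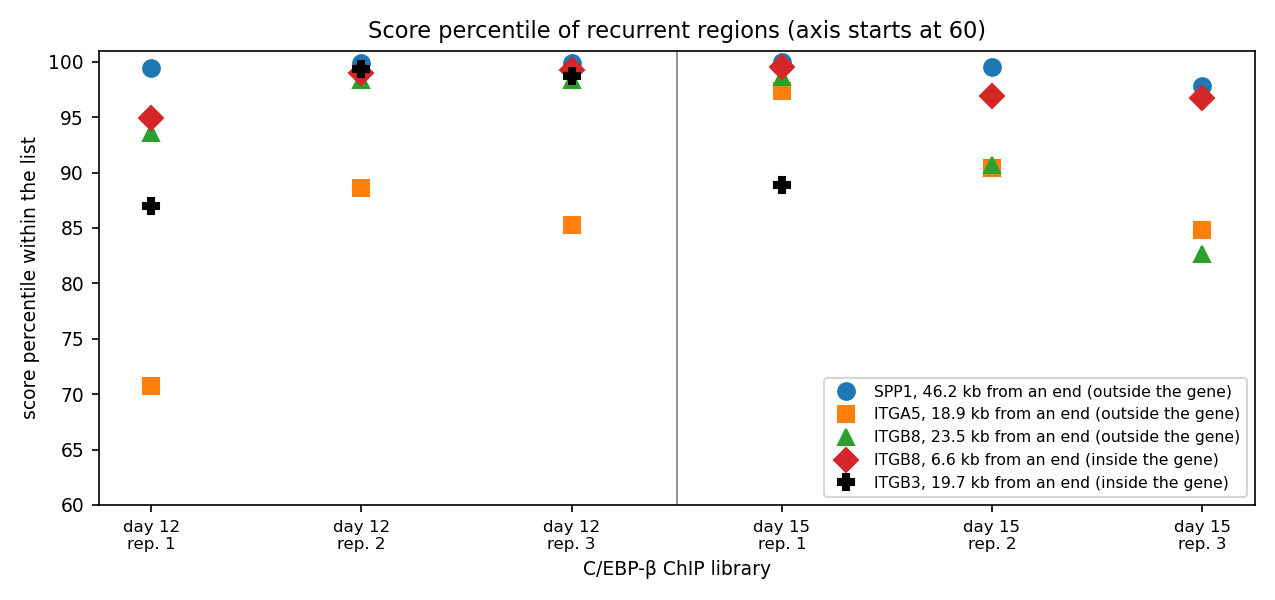
Score percentile within each library's list (vertical axis, starting at 60) for the 4 regions found in all 6 libraries and for the region inside ITGB3, by library (horizontal axis). The SPP1 region lies at or above 97.8 in every library, and the ITGB3 region has points in the 3 day 12 libraries and day 15 replicate 1 only, because no summit was listed there in day 15 replicates 2 and 3.

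The other genes of the integrin system were examined in 5 lists of 63 genes, 61 of which matched the annotation. Of these 61, 23 (37.7%) were bound on day 12 and 28 (45.9%) on day 15, beside 38.1% and 46.3% of all genes. Leaving out day 12 replicate 2 left 3 bound on day 12 and leaving out replicate 3 left 2 of the 61, since both remaining libraries then needed a summit, beside 16.6% and 15.0% of all genes. The 14 other alpha subunits had 4 bound on day 12 and 3 on day 15. ITGAM, a myeloid subunit, had a summit within 5 kb in all 6 libraries. Only 2 of the 61 genes did, ITGAM and CCN2, beside 13.1% of all genes. Of the 3 other beta subunits, 1 was bound on each day. Other ligands had 7 and 8 of 19 bound, among them CCN2 (connective tissue growth factor) in all 6 libraries. The osteopontin receptor CD44 and the mucin MUC1 were bound on both days and MUC4, named outside the rule to complete this list, on neither.

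The intracellular adhesion proteins that link integrins to actin had 9 of 22 genes bound on day 12 (40.9%) and 14 on day 15 (63.6%). FERMT3 (kindlin 3 of blood cells) and ILK (integrin-linked kinase) were present in 0 of 3 libraries on day 12 but 3 of 3 on day 15. This is the pattern of ITGB1, which 553 other genes share with ITGB1 (2.83% of all genes). PTK2 (focal adhesion kinase) and PARVA (alpha-parvin) shared the pattern of ITGAV and ITGA5, as did MADCAM1. In all, 1017 other genes (5.2% of all genes) shared it with ITGAV. The pattern of ITGB8 was shared by 9 of the 61 genes of the lists and by 1957 genes of the genome (10.0% of all genes). The 9 were ACTN1 and ACTN4 (alpha-actinins), FERMT2, ITGA1, MUC1, PXN (paxillin), TGFB3, TLN1 (talin) and ZYX (zyxin). FERMT1, ITGA11, ITGA3, LGALS3, NPNT and POSTN had the pattern of FN1, as did 1146 genes of the genome (5.86%). CD44 and FBN1 had that of ITGB3, shared by 717 genes (3.67%). THBS1 had that of ITGB5, shared by 357 (1.83%), and SHARPIN that of SPP1, shared by 299 (1.53%). Likeness here means the same presence or absence within 5 kb in each of the 6 libraries.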

How the data were processed

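C/EBP-β ChIP was analysed in 6 libraries, 3 of day 12 and 3 of day 15. Per the submitters' processing notes, the tools were Bowtie2 2.3.5.1, SAMtools 1.9 and MACS2 2.1.2, and the genome was susScr11. The peak threshold, the role of the inputs and the handling of duplicates were not given in the sources used here. Every summit has a score deposited by the authors, the −log10 of either its p-value or its q-value, and which of them is not stated. It grows with depth, so it only ranked or filtered summits within a list.

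Summits on the chromosomes were used (196220 of 198341). Gene positions, without strand or sequence, came from RefSeq for Sscrofa11.1, so the planned motif search and protein comparison were not run. The named genes were the 10 members, and from each list those separating the days, then those with a summit in all 6 libraries, up to 4. Genes of the lists with a member's pattern were also named, and neighbours nearer to a described summit. The members, lists and tests were chosen with earlier results of these data known. Window counts were tested on simulated lists. Analyses used Python 3.11.15, NumPy 2.4.6 and pandas 2.3.3.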

Additional observations from a re-analysis of the deposited data

How the results depend on the processing

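Depth per sample is unknown and the lists differ widely in length, so presence in a list limits every count. With a score of at least 5, 2 of the 10 genes were bound on day 12, 4 on day 15 and 0 separated the days towards day 15, beside 26.6%, 36.2% and 3.16% of all genes. With at least 10, these were 1, 0 and 0 (14.0%, 20.3% and 2.6% of all genes), and with equal lists 1, 1 and 0 (9.68%, 20.3% and 0.292%). Bound on day 12 were 2 genes within 1 kb (21.2% of all genes), 9 within 50 kb (80.0%), 7 with the gene body included (50.9%) and 0 when all 3 libraries were required (14.8%). A window with the gene body grows with gene length, and all of the 10 genes but SPP1 exceed the median length of 20.6 kb. ITGB1 no longer separated the days within 50 kb or with the gene body (0 genes each, beside 0.517% and 2.16% of all genes). Leaving out each library gave 0 to 4 genes bound on day 12, 5 to 7 on day 15 and 1 to 3 separating the days towards day 15, beside 15.0% to 38.1%, 34.5% to 46.3% and 3.19% to 8.04% of all genes; 0 did so towards day 12 in any setting run. Of the 61 pathway genes, 1 was bound on day 12 and 11 on day 15 with equal lists, beside 9.68% and 20.3% of all genes. With a library left out, 2 to 23 were bound on day 12 and 20 to 28 on day 15, beside 15.0% to 38.1% and 34.5% to 46.3%. The regions shared by all libraries numbered 3 with equal lists, 4 when joined within 100 or 500 bp and 4 to 5 with a library left out. The share of all regions of the genome under these settings is not given here.

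Non-overlapping numbers of summits within 50 kb, seen for 1 gene, were seen for 0 with a score of at least 10, equal lists or 100 kb, for 2 per 10000 summits (ITGB1, and ITGB3 in the opposite direction, at -0.806), for 3 (FN1, ITGA5 and ITGB1) within both processing sets, and for 1 to 2 with a library left out, 2 (ITGA5 and ITGB1) without day 12 replicate 3. With a score of at least 5 the number was again 1, but the gene was ITGA5 (2.67) and not ITGB1 (1.67, exact permutation p = 0.4). The share of all genes is given here only for the unfiltered lists of all 6 libraries, 2.84% towards day 15 and 0.0307% towards day 12. The numbers under the other settings therefore have no background and cannot be read as particular to these genes. The sign of a difference turned for ITGAV with a score of at least 5 (0.333), per 10000 summits (0.0507) and within sets (1.25), and for ITGB8 within sets (1). It turned for ITGB5 with a score of at least 10 (-0.667), for ITGB5 and ITGB6 with equal lists (-0.333 each), for ITGB6 within 100 kb (-1) and for SPP1 per 10000 summits (-0.0245). With a library left out the ranges were -1.33 to 2.67 for SPP1, -2 to 3 for FN1, -2.67 to 1.5 for ITGAV, -1.67 to 4.33 for ITGB5, -1.17 to 1.5 for ITGB6 and -4.67 to 0.833 for ITGB8. The sign did not turn for ITGA4, ITGA5, ITGB1 and ITGB3 in the 15 settings run, where a difference of 0 was not counted as a turn. The difference was 0 for ITGB1 with equal lists and for ITGB3 with a score of at least 10. For ITGA4, which had 1 summit in all, it was 0 in several settings. The cause of these changes was not tested. For the shared regions, the joining distances were planned, and the score filter, equal lists and left-out libraries were chosen after seeing the data, as were the alternatives for the pathway genes.

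The labels do not say whether equal replicate numbers mark pairs of libraries. Deviations from the day means correlated across genes at -0.57, -0.12 and -0.43 for numbers 1 to 3, and at -0.26 to 0.51 for unequal numbers. List length and processing set also differ between the libraries, so these correlations cannot decide whether the numbers mark pairs. With the replicate number as a block, 1 gene (ITGB1) had the same sign in all 3 pairs, with a difference of 2.33 summits and an exact permutation p of 0.25, the smallest that 3 pairs allow. No call could change.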

Other observations

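The summits within 5 kb of the ends of each gene lay at one end only. Over the 6 libraries, 56 summits lay within 5 kb of an end of 9 of the 10 genes, 37 at lower-coordinate and 19 at upper-coordinate ends. SPP1 (7 summits), ITGA5 (9) and ITGB1 (3) had all of theirs at the upper end, and FN1 (5), ITGAV (5), ITGB3 (11), ITGB5 (4) and ITGB8 (11) at the lower end. All 8 genes with at least 2 near-end summits thus used a single end, against 57.5% of the 12077 genes with at least 2 and 59.7% of the 9217 genes with 3 to 11. The use of a single end was noticed after the values were seen and was not tested, and the strand of the genes was not used here. It depends on the 5 kb cut-off. FN1 also had summits 5051 to 5858 bp inside its upper end, and ITGB1 had one 5132 bp outside its lower end. A slightly wider window would thus reach summits at both ends of FN1 and ITGB1, and other windows were not counted by end. The genes compared were not matched for length, and all of these 8 but SPP1 are longer than the median protein-coding gene (20.6 kb).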
